A study of Mus musculus with 12 samples.

Results

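Mitochondrial ribosomal proteins are made from nuclear genes and build the ribosome that works inside mitochondria. Their 77 mRNAs were taken by name, as the genes whose symbol begins with Mrpl or Mrps and a digit, with pseudogenes left out. Of these, 48 carry a large subunit name (Mrpl) and 29 a small subunit name (Mrps), among 20093 genes listed in both deposited count tables. All 77 passed the filter on low counts in every comparison, with 322 to 4335 reads for a member in a library.

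RNA-seq was done on livers of 12 male C57BL/6N mice, 3 in each of 4 groups. All mice carried floxed Elavl1 alleles, the gene of the RNA-binding protein HuR. Per the labels, HuRHep-/- mice received AAV8-Tbg-Cre at 4 to 6 months of age, a virus whose Tbg promoter limits Cre to hepatocytes, and WT mice received AAV8-Tbg-null. Other liver cells therefore keep the floxed alleles, and whole liver was sequenced. Mice of either genotype were fed normal chow, or for 16 weeks the HFCF diet (high fat, cholesterol, fructose), which supplied 40% of its kcal as fat and 20% as fructose and held 2% of cholesterol. The study's methods describe a cross with an albumin-driven Cre and younger mice instead.

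The mitochondrial ribosome translates the few mRNAs of mitochondrial DNA, which encode core subunits of the respiratory chain and of ATP synthase. Its 2 subunits combine RNA made in the organelle with proteins made in the cytosol and imported, so that the assembly depends on both genomes. The large subunit forms peptide bonds and feeds the new chain through an exit tunnel to the inner membrane, and the small subunit binds the mRNA and decodes it. Hepatocytes are rich in mitochondria, and HuR binds AU-rich and U-rich stretches of many mRNAs.

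Libraries held 30071731 to 35949203 reads, of which 0.237% to 0.281% fell on the 77 members. Elavl1 went against the labels. It stood at 29.3 to 31.0 CPM (counts scaled to library size with TMM factors) in chow WT livers and at 38.8 to 42.8 CPM in chow livers labelled HuRHep-/-, and at 23.9 to 27.0 and 32.2 to 34.2 CPM in the HFCF-fed groups, so that it was higher in every liver labelled HuRHep-/- within each diet. Gene counts do not show which exons the reads cover, and every genotype direction below is that of the labels. The 8 hepatocyte markers, led by Alb, were abundant in all 12 livers, with sums of 96766 to 118600 CPM in chow WT, 77425 to 88585 in chow HuRHep-/-, 67272 to 77202 in HFCF WT and 60858 to 67000 CPM in HFCF HuRHep-/- livers. The 2 diets were deposited as separate tables, so that diet and any difference between the tables cannot be told apart. In whole liver, fewer cells of a type and less RNA per cell cannot be told apart either.

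The level of the members, as CPM per kb of transcript, spanned a 30.2-fold range around a median of 24.4 CPM per kb. The highest means were Mrpl12 at 85.4 CPM per kb, a protein of the stalk that contacts translation factors, and Mrps21 at 83.9 CPM per kb, a small protein of the small subunit. Next came Mrpl52 at 72.3, Mrpl14 at 69.1 and Mrpl42 at 62.3 CPM per kb, all of the large subunit. At the other end stood Mrpl19 at 2.82, Mrpl47 at 4.08, Mrps25 at 4.56, Mrpl3 at 4.59 and Mrps26 at 4.62 CPM per kb. Mrpl19 was below Mrpl47 in all 12 livers, but the order of the other 4 is not settled, since each was below the next in only 7 to 9 of 12 livers. The mean of Mrpl47 pools groups that differed, with 4.92 and 5.06 CPM per kb in chow WT and HuRHep-/- livers and 3.27 and 3.07 in the HFCF-fed ones. Mrpl12 was above Mrps21 in only 7 of 12 livers, so their order is not settled, whereas Mrps21 was above Mrpl52 in all 12. The middle 80% of members lay between 6.86 and 49.8 CPM per kb, and the median was 26.3 CPM per kb for Mrpl and 17.5 CPM per kb for Mrps names. Mrpl52 was above Mrpl14 in 7 and Mrpl14 above Mrpl42 in 10 of 12 livers. Levels per kb rest on the length of 1 annotated transcript per gene, and the range and the order depend on it. The members named as lowest have transcripts of 3364 to 6073 bases and those named as highest of 418 to 1316 bases, where the median member has 1288. Without division by length, Mrps25 was at a mean of 32.6 CPM in chow WT livers and Mrps6 at 11.6 CPM. Per kb their order turned, with 5.37 and 13.8 CPM per kb in the same livers. A low level per kb is thus not a low count of reads.

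**Figure D1:**
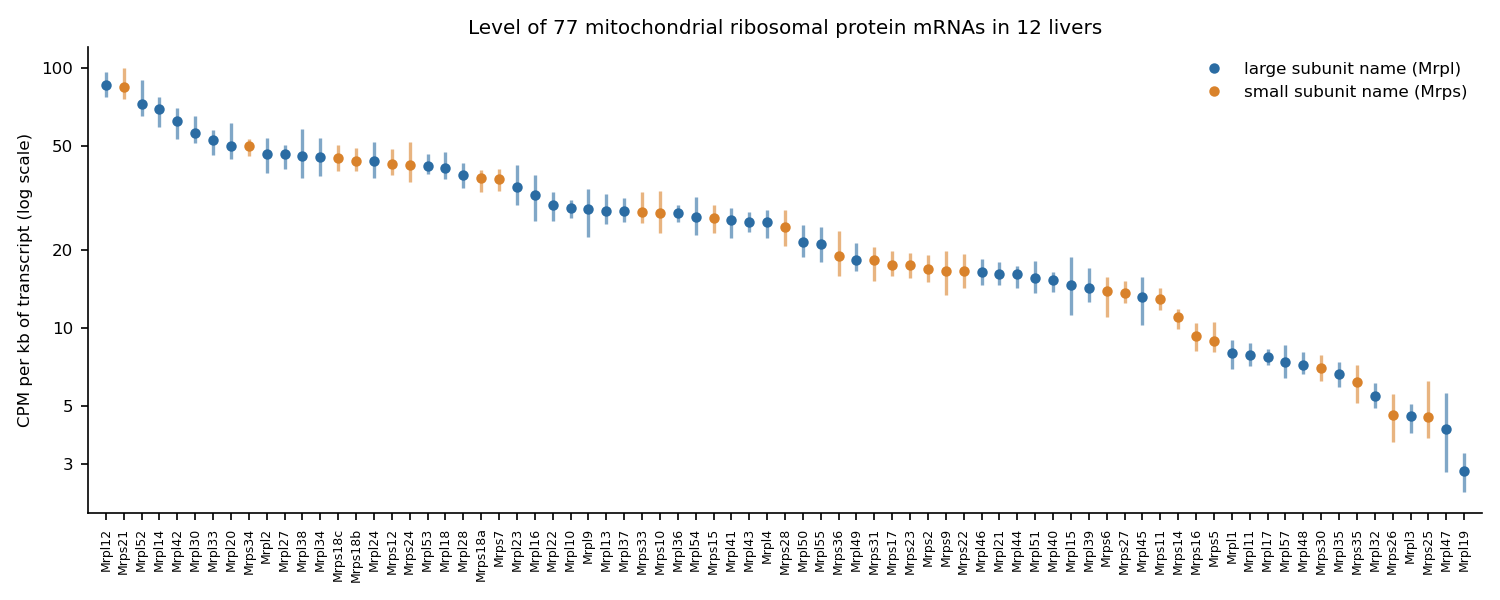
Level of each of the 77 members in CPM per kb of transcript (log axis), ordered from high to low, with points for the mean of 12 livers and lines from the lowest to the highest liver. Blue marks Mrpl and orange Mrps names, and the level falls from 85.4 for Mrpl12 to 2.82 for Mrpl19 with both subunits spread along the order.

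The 3 members that share a name with the bacterial protein S18 lay close together. Mrps18c had 44.8, Mrps18b 43.9 and Mrps18a 37.7 CPM per kb, and none of them was called in any comparison. In structures, Mrps18b and Mrps18c sit in the small subunit, while Mrps18a and Mrps30 belong to the large one in spite of their names. Across the 12 livers, the log2 CPM of a member correlated with the mean of the other 76 with a median Pearson r of 0.60, and within groups with a median of 0.63. The points share their libraries, depth and scaling, so these values are a description. The 3 lowest were Mrpl44 (r = -0.67), which has a fold related to RNase III, Mrps6 (r = -0.49) and Mrpl16 (r = -0.48), and r was below 0 for 16 members. These values hold the differences between groups. Within groups, r was -0.56 for Mrpl44, -0.06 for Mrps6 and 0.35 for Mrpl16, and it was below 0 for 7 members.

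The genes of the members are described next by features that the choice by name did not use, without a test. By GENCODE, the members lay on 17 chromosomes, with at most 10 on one. Of the 77, 23 (29.9%) started within 1000 bases of a gene on the other strand that points away from them, against 11.3% of 13393 tested protein-coding genes. Examples were Mrps12 and Sars2, the mitochondrial seryl-tRNA synthetase, whose starts were 172 bases apart, and Mrpl36 and Ndufs6, a subunit of respiratory complex I, whose starts overlapped by 29 bases. Their 3′ untranslated regions were short, with a median of 327 bases against 986, and 54.5% against 66.3% of genes held the AU-rich pentamer ATTTA. Per kb of 3′ untranslated region, ATTTA occurred 1.82 times in members and 1.81 times in all tested genes.

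RefSeq promoters (GRCm38.p6) were found for 68 of the 77 genes, 74 promoters in all. Exact letters of 4 motifs were searched on both strands. The letters of ETS factors such as GABP, CCGGAAG, stood in 25 member promoters (33.8%), against 15.7% of promoters of tested genes and 8.86% of all promoters. Those of YY1, AAGATGGCG, stood in 8 (10.8%) against 2.70% and 1.403%, and the NRF1 core, GCATGCGC, in 8 (10.8%) against 4.72% and 2.71%. The E-box CACGTG stood in 7 promoters (9.46%), against 9.54% and 7.15%. The ends of the ETS and YY1 letters can overlap, and 35 promoters (47.3%) held at least 1 of the ETS, YY1 and NRF1 letters, against 21.4% and 12.1%. Members without an entry were Mrpl4, Mrpl13, Mrpl15, Mrpl19, Mrpl38, Mrpl54, Mrps28, Mrps34 and Mrps35.

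The 120 bases before the RefSeq start are printed 5′ to 3′ for 4 members, with matches to the motifs in capitals. They are the members with an entry that stayed called without each library in turn, either with genotype averaged over both diets (Mrpl34 and Mrpl50) or with diet in both genotypes (Mrpl47 and Mrps9). Of these, Mrpl34 holds the ETS letters and the other 3 hold none of the 4 motifs. Of the 6 members called with genotype averaged over both diets, Mrpl34 and Mrpl51 hold the ETS letters, and Mrpl50, Mrpl23, Mrps17 and Mrps10 hold none of the 4 motifs. The plus-strand stretches are chr8:71464806-71464925 for Mrpl34 and chr1:42851113-42851232 for Mrps9, and the minus-strand ones are chr3:32736756-32736875 for Mrpl47 and chr4:49521084-49521203 for Mrpl50. For Mrpl47 the stretch lies inside the GENCODE gene (chr3:32725397-32737605), whose start is upstream of the RefSeq start used here. A match is a description of letters and not a site shown to be bound.
Mrpl34: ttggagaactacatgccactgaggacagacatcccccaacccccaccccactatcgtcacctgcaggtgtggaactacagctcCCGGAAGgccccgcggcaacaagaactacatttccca
Mrpl50: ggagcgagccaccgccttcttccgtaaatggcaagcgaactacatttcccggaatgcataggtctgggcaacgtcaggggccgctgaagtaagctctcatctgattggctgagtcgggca
Mrpl47: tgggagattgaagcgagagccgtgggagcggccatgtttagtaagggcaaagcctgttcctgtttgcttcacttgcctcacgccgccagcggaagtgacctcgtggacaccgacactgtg
Mrps9: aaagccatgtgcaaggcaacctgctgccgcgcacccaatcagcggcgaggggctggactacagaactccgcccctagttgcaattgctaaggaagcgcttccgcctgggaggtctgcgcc

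The first comparison asked which members differ between genotypes in chow-fed livers. No member passed, and under TMM scaling the estimates fell on both sides of 0. Of the 77, 38 had a higher and 39 a lower estimate in livers labelled HuRHep-/-, with a median log2 fold change of -0.01 against 0.01 for all genes tested. With library totals in place of TMM factors, an alternative chosen after seeing the data, 53 were higher and 24 lower. None of the 77 was called by limma (threshold 0.05 on the adjusted p), while 4.21% of the 13526 genes tested were. The count was also 0 with voom weights, and 11 members had an unadjusted p below 0.05, as had 3184 of all genes tested. The 2 groups of livers did not overlap for 18 members (23.4%), against 29.5% of genes tested. The precision was such that the 95% interval lay within a 1.5-fold change for all 77 members.

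The member nearest to the threshold was Mrpl34 (GRCm38 chr8:71464959-71465747, plus strand), a small protein of the large subunit. Its level was 32.1, 28.7 and 32.5 CPM in chow WT livers and 23.2, 24.5 and 25.5 CPM in chow livers labelled HuRHep-/-. The groups did not overlap, and the log2 fold change was -0.34 ± 0.08 (SE, n = 3 per group) with a limma adjusted p of 0.0510. It passed without chow WT replicate 2 (limma adjusted p = 0.0396) and in 3 of the 8 other planned settings, namely upper-quartile factors, at least 10 counts in every library, and the fit on all 12 libraries, where its limma adjusted p was lowest at 0.0114. Mrpl23, at the exit tunnel, was next, with 26.2, 25.3 and 29.1 CPM in WT and 20.6, 20.7 and 23.5 CPM in HuRHep-/- livers (log2 fold change -0.31 ± 0.09, limma adjusted p = 0.0867), and passed in the fit on all 12 libraries. Mrpl50 (chr4:49512596-49521093, minus strand) stood on the other side, with 45.1, 40.8 and 42.1 CPM in WT and 52.7, 47.3 and 49.3 CPM in HuRHep-/- livers (0.23 ± 0.07, limma adjusted p = 0.108). The others among the 8 smallest p-values were Mrpl17 (0.18), Mrpl3 (0.21) and Mrpl37 (0.16) with higher and Mrpl42 (-0.21) and Mrps10 (-0.24) with lower estimates, and their limma adjusted p-values ran from 0.115 to 0.163.

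In HFCF-fed livers the genotype comparison gave small estimates whose balance moved with the scaling. Estimates were higher for 32 and lower for 45 members, with a median of -0.0147 against -0.0011 for all genes tested. With upper-quartile factors 49 were higher and 28 lower, and with library totals 68 were higher and 9 lower, with a median of 0.14 and 4 members called higher. Under TMM, none was called by limma or with voom weights, against 6.84% of 14295 genes tested, and 5 had an unadjusted p below 0.05, as had 4221 of all genes tested. Groups did not overlap for 18 members (23.4%), against 36.8% of genes. The 95% interval lay within a 1.5-fold change for 76 members, the exception being Mrpl38, whose estimate of -0.29 had a lower bound of -0.62.

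Mrpl50 and Mrpl34 had the smallest p-values with this diet. Mrpl50 was at 39.7, 42.0 and 41.9 CPM in HFCF WT and at 47.4, 46.7 and 47.1 CPM in HFCF HuRHep-/- livers, without overlap (0.18 ± 0.06, limma adjusted p = 0.0942). Mrpl34 was at 28.7, 29.6 and 28.6 CPM in WT and at 25.2, 26.2 and 25.9 CPM in HuRHep-/- livers, without overlap (-0.19 ± 0.06, limma adjusted p = 0.0994). Mrps2, of the small subunit, had 36.8, 39.8 and 36.0 CPM in WT and 31.7, 34.7 and 31.2 CPM in HuRHep-/- livers (-0.22 ± 0.07, limma adjusted p = 0.103). Mrps17 (-0.16), Mrpl51 (-0.16) and Mrps10 (-0.18) had lower and Mrpl14 (0.13) and Mrps16 (0.15) higher estimates, with limma adjusted p-values of 0.117 to 0.191. Beside these values, 2 of 5 cholangiocyte markers were called higher in HFCF-fed livers labelled HuRHep-/-, with a summed level of 133 to 242 CPM against 38.6 to 87.4 CPM in WT, and their part in the members' values was not tested.

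**Figure D2:**
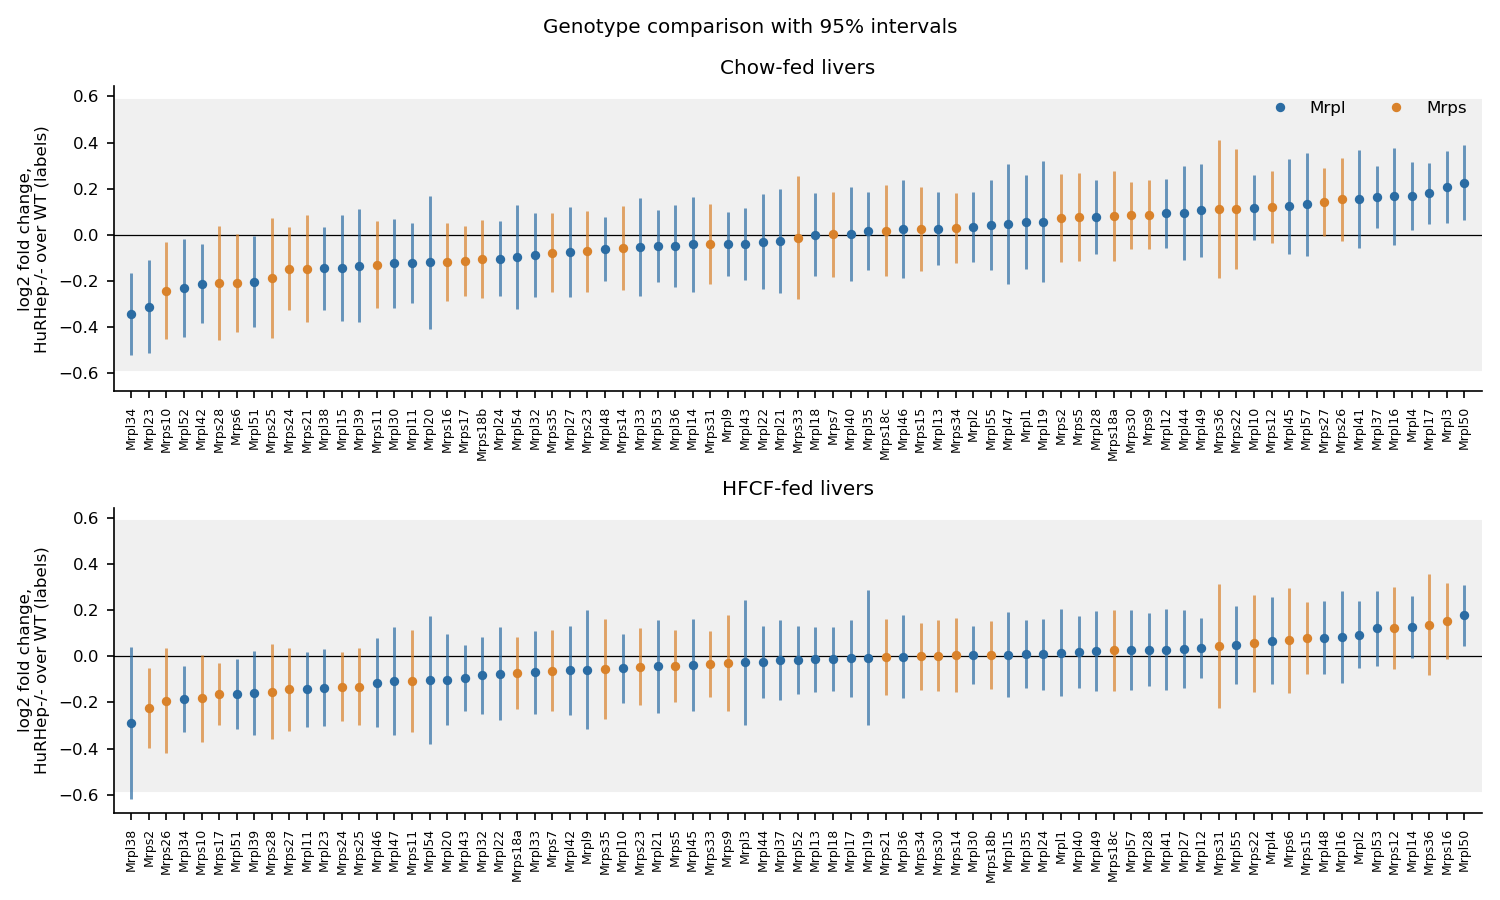
Log2 fold change of livers labelled HuRHep-/- over WT for the 77 members in chow-fed (top) and HFCF-fed livers (bottom), ordered by value in each panel, with 95% intervals from 3 against 3 livers and the band of a 1.5-fold change in grey. Estimates run from -0.34 to 0.23 in chow and from -0.29 to 0.18 in HFCF, and 1 interval, that of Mrpl38, leaves the band.

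Averaged over both diets, with 12 livers in 1 fit, 6 of 77 members (7.79%) were called by limma, against 19.2% of 14535 genes tested. Mrpl50 alone was higher in livers labelled HuRHep-/- (8.96% of genes were called higher), and 5 members were lower (10.2% of genes). Mrpl34 had a log2 fold change of -0.26 ± 0.05 (adjusted p = 0.00351) and Mrpl50 of 0.21 ± 0.04 (adjusted p = 0.00717), and both stayed called when any 1 of the 12 livers was left out. Mrpl23 followed at -0.22 ± 0.06 (adjusted p = 0.0192) and lost the call without chow HuRHep-/- replicate 2 (adjusted p = 0.0525). The estimates for the members were spread around 0, with 37 higher, 40 lower and a median of -0.01 against 0.02 for all genes. With upper-quartile factors, 2 members were called higher and 3 lower, and with library totals, which moved the median of all genes by 0.11, 25 were called higher and Mrpl34 alone lower.

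The 3 others were closer to the threshold. Mrps17, of the small subunit, had 43.2, 41.1 and 39.2 CPM in chow WT, 39.2, 36.8 and 37.5 in chow HuRHep-/-, 38.3, 39.7 and 38.2 in HFCF WT and 34.4, 34.8 and 35.7 CPM in HFCF HuRHep-/- livers (-0.13 ± 0.04, adjusted p = 0.0363). Mrps10, in the small subunit head, had -0.21 ± 0.06 (adjusted p = 0.0376), and Mrpl51 had -0.18 ± 0.06 (adjusted p = 0.0426). Each of the 3 kept its call in 3 to 5 of 12 fits that left out 1 liver. Mrps24 (-0.13) and Mrps12 (0.13), the next in order, had an adjusted p of 0.0844 each. The count of calls was 2 to 10 with 1 liver left out. It was 2 without chow HuRHep-/- replicate 2, 3 without chow WT replicate 1, HFCF WT replicate 1, HFCF WT replicate 2 or HFCF HuRHep-/- replicate 2, and 10 without chow WT replicate 2. Markers of other cells moved with genotype beside these values. Of the cholangiocyte markers 2 of 5 were called higher averaged over diets, and of the Kupffer cell markers 4 of 8 were called higher in livers labelled HuRHep-/- and a summed level of 144 to 185 CPM in chow WT, 203 to 299.7 in chow HuRHep-/-, 219.5 to 355 in HFCF WT and 305 to 505 CPM in HFCF HuRHep-/- livers. Their part in the members' values was not tested.

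**Figure D3:**
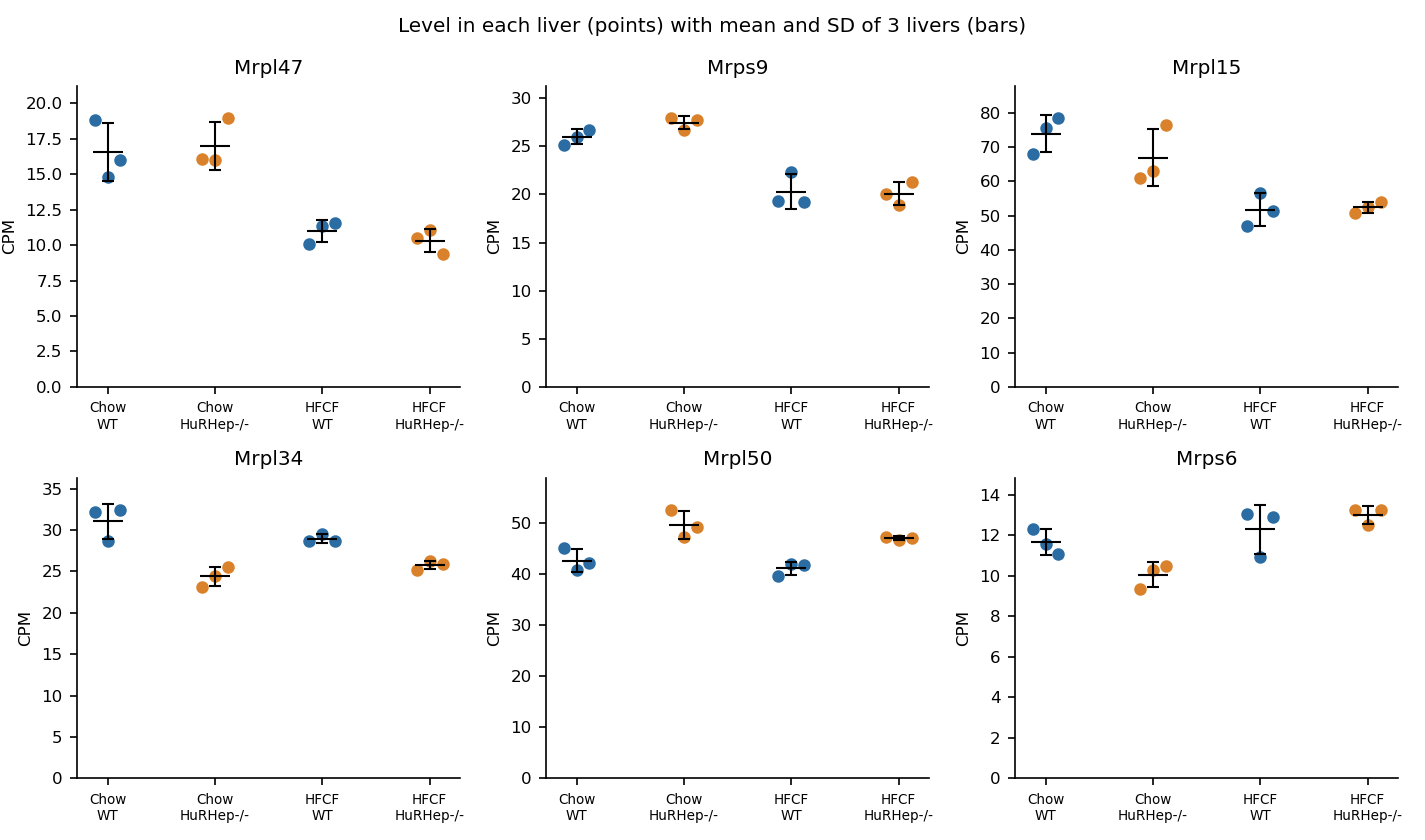
Level in CPM of 6 members in each of the 12 livers (points, blue for WT and orange for livers labelled HuRHep-/-), with the mean and SD of the 3 livers of a group in black and axes that start at 0. Mrpl47, Mrps9 and Mrpl15 are lower in every HFCF-fed than in every chow-fed liver, Mrpl34 is lower and Mrpl50 higher in livers labelled HuRHep-/- within each diet, and Mrps6 separates chow-fed from HFCF-fed livers in the HuRHep-/- groups alone.

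Feeding the HFCF diet was compared with chow within each genotype. In WT livers, mRNAs of the mitochondrial ribosome leaned downwards under TMM scaling, a direction that turns when library totals are used instead (values below), and the largest fall was 33.4%. Of the 77, 54 had a lower and 23 a higher estimate, with a median of -0.09 against 0.01 for all genes tested. Called were 17 members (22.1%), against 24.2% of 14535 genes, with 15 lower (19.5%, against 12.8% of genes) and 2 higher (2.60%, against 11.3%). With upper-quartile scaling, 10 were called lower and 3 higher. Past a 1.5-fold change, 1 member was called (9.41% of genes), and groups did not overlap for 26 members (33.8%, against 37.6% of genes).

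Mrpl47 (GRCm38 chr3:32725397-32737605, minus strand), a protein at the exit tunnel, fell the most in WT livers. It was at 18.8, 14.8 and 16.0 CPM in chow-fed and at 10.1, 11.4 and 11.5 CPM in HFCF-fed WT livers, without overlap (log2 fold change -0.59 ± 0.11, limma adjusted p = 0.00386). Mrpl15 (chr1:4773206-4785739, minus strand), of the large subunit, fell from 67.9, 75.5 and 78.4 CPM to 47.0, 56.6 and 51.4 CPM (-0.52 ± 0.10, limma adjusted p = 0.00344). Mrps9 (chr1:42851233-42905683, plus strand), in the small subunit head, fell from 25.2, 26.0 and 26.7 CPM to 19.3, 22.4 and 19.3 CPM (-0.36 ± 0.07, limma adjusted p = 0.00606). Together with Mrpl24 (-0.35), which also lies at the exit tunnel, and Mrpl2 (-0.28), next to the centre that forms the peptide bond, they were the 5 members called in each of the 6 fits that left out 1 WT liver.

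The other members called lower in WT livers were Mrpl9 (-0.37), Mrps25 (-0.33), Mrpl52 (-0.30), Mrps35 (-0.27), Mrps24 (-0.26), Mrpl30 (-0.25), Mrps16 (-0.23), Mrps23 (-0.22), Mrpl13 (-0.20) and Mrps30 (-0.19), with limma adjusted p-values of 0.0134 to 0.0413. They came from both subunits. Rises passed for Mrpl45, which tethers the ribosome to the inner membrane, from 28.8, 24.95 and 30.6 CPM to 35.2, 33.1 and 35.7 CPM (0.31 ± 0.09, limma adjusted p = 0.0295), and for Mrpl16, from 33.2, 29.9 and 34.0 CPM to 40.6, 35.5 and 42.3 CPM (0.28 ± 0.09, limma adjusted p = 0.0421). The count of 17 became 5 without chow WT replicate 1, 8 without chow WT replicate 3, 8 without HFCF WT replicate 1 and 7 without HFCF WT replicate 3.

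In livers labelled HuRHep-/-, the members again leaned downwards with HFCF under TMM scaling and upwards with library totals, and more of the other genes were called than in WT livers. Of the 77, 53 had a lower and 24 a higher estimate, with a median of -0.08 against 0.0027 for all genes. Called were 16 members (20.8%), against 38.9% of genes, with 14 lower (18.2%, against 19.1%) and 2 higher (2.60%, against 19.7%). The share called lower was near the background and the share called higher below it. With upper-quartile scaling, 6 were called lower and 7 higher. Past a 1.5-fold change, 1 member was called (19.1% of genes), and groups did not overlap for 33 members (42.9%, against 54.6%).

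Mrpl47 again fell the most, from 16.1, 16.0 and 19.0 CPM in chow-fed to 10.5, 11.05 and 9.40 CPM in HFCF-fed HuRHep-/- livers (-0.72 ± 0.11, limma adjusted p = 0.000756). Mrps9 fell from 27.9, 26.7 and 27.8 CPM to 20.1, 18.9 and 21.3 CPM (-0.45 ± 0.07, limma adjusted p = 0.00107). Mrps26, a small subunit protein particular to mitochondria, fell from 20.96, 21.9 and 23.9 CPM to 15.6, 16.9 and 19.3 CPM (-0.37 ± 0.09, limma adjusted p = 0.00687). These, Mrpl9 (-0.37), Mrps30 (-0.25) and Mrps6 were the 6 members called in each of the 6 fits that left out 1 liver. Mrps6, which binds the small subunit platform, rose from 9.34, 10.3 and 10.5 CPM to 13.2, 12.5 and 13.3 CPM (0.37 ± 0.09, limma adjusted p = 0.00754).

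The other members called lower in HuRHep-/- livers were Mrpl15 (-0.35), Mrps35 (-0.23), Mrpl13 (-0.22), Mrps24 (-0.22), Mrpl24 (-0.21), Mrps27 (-0.21), Mrpl2 (-0.19), Mrpl12 (-0.19) and Mrpl28 (-0.18), with limma adjusted p-values of 0.0144 to 0.0469. Mrps27 is an RNA-binding protein of the small subunit, and Mrpl12 is among the members with the highest level per kb. Mrpl48 rose from 28.4, 29.0 and 29.6 CPM to 34.5, 32.6 and 31.5 CPM (0.18 ± 0.06, limma adjusted p = 0.0302). The count of 16 became 7 without chow HuRHep-/- replicate 3, 8 without HFCF HuRHep-/- replicate 1 and 9 without HFCF HuRHep-/- replicate 2.

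The direction of the family with diet depends on the scaling. As a share of all reads, the members took 0.237% to 0.244% in chow WT and 0.246% to 0.262% in HFCF WT livers, and 0.246% to 0.255% against 0.271% to 0.281% in HuRHep-/- livers, so that the share was higher after HFCF. With library totals, the median of all genes moved up by 0.18 in WT and by 0.23 in HuRHep-/- livers, and the median of the members became 0.09 and 0.15. The median of the members minus that of all genes was -0.10 in WT livers under each of TMM, RLE, upper-quartile and total scaling. In HuRHep-/- livers it was -0.0850 with TMM and -0.0846 with library totals. A scaling factor moves all genes of a library alike, so this difference stays nearly the same by construction. With library totals, 3 members were called lower and 18 higher in WT livers, and 2 lower and 26 higher in HuRHep-/- livers, Mrpl47 being among the lower ones in both. Changes with diet are therefore relative to the other genes of these livers.

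**Figure D4:**
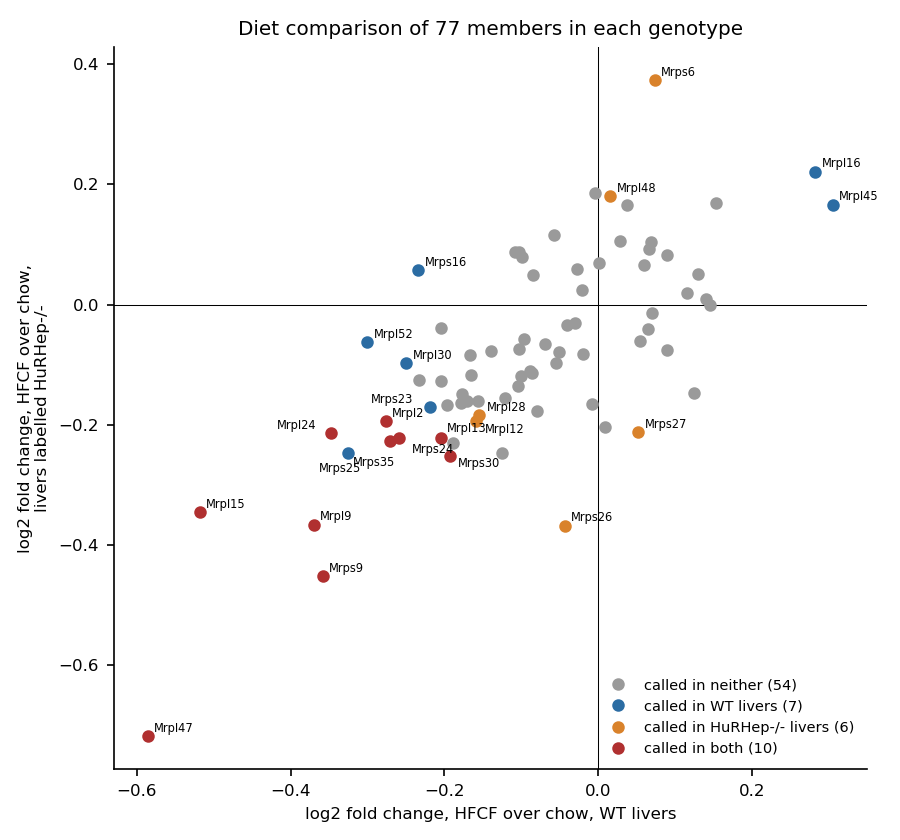
Log2 fold change of HFCF over chow for the 77 members in WT livers (horizontal axis) and in livers labelled HuRHep-/- (vertical axis), each from 3 against 3 livers, coloured by where limma called them and named where called. The 10 members called in both lie at the lower left, with Mrpl47 farthest out at -0.59 and -0.72.

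The 2 diet comparisons use different livers but share 1 estimate of the spread and 1 scaling. In both, 10 members were called lower, which is 66.7% of those lower in WT and 71.4% of those lower in HuRHep-/- livers. They were Mrpl2, Mrpl9, Mrpl13, Mrpl15, Mrpl24, Mrpl47, Mrps9, Mrps24, Mrps30 and Mrps35. This is 13.0% of the members, against 8.94% of all genes tested, of which 1299 were lower in both (69.7% and 46.7% of those lower in each). No member was called higher in both, whereas 1087 genes were. Mrpl47 was the only member whose estimate passed a 1.5-fold change with a call in either genotype. In WT livers it passed by very little, with -0.5855 where a 1.5-fold change is 0.5850 on the log2 scale.

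An interaction term, fitted over all 12 livers, asked whether the genotype estimate was larger with one diet than with the other. No member was called by limma or with voom weights, and 0% of 14535 genes were. Among the members, 5 had an unadjusted p below 0.05, and all carry Mrps names, while 2083 genes had such a p. Mrps16 had the smallest, with 26.8, 24.7 and 25.8 CPM in chow WT, 24.1, 22.2 and 24.8 in chow HuRHep-/-, 20.96, 23.3 and 21.4 in HFCF WT and 24.8, 24.8 and 24.1 CPM in HFCF HuRHep-/- livers. Its difference was 0.29 ± 0.10 on the log2 scale (limma adjusted p = 0.227). Mrps6 had 0.30 ± 0.13 and Mrps27, Mrps26 and Mrps2 had differences of -0.26, -0.32 and -0.27, with limma adjusted p-values of 0.248 to 0.317. The 95% interval lay within a 1.5-fold difference for 76 members, the exception being Mrps26 with a lower bound of -0.59. A diet call in 1 genotype alone, as for Mrps6, Mrps26, Mrpl52 or Mrps16, is thus not shown to differ between genotypes.

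Cell type markers moved with diet beside these values. Over all genes tested, 11.3% were called higher and 12.8% lower with diet in WT livers, and 19.7% and 19.1% in HuRHep-/- livers. Of the hepatocyte markers, 4 of 8 were called lower with HFCF in each genotype, in the ranges given above. Stellate cell markers summed to 234 to 271 CPM in chow WT and 266 to 499 in HFCF WT, and to 185 to 276 and 477 to 571 CPM in the HuRHep-/- groups, with 2 of 8 and 8 of 8 called higher. Cholangiocyte markers, with Cftr at 0 in at least 1 library, summed to 35.1 to 79.0, 38.6 to 87.4, 47.1 to 77.3 and 133 to 242 CPM in the same order, with 0 of 5 tested called in WT and 5 of 5 called higher in HuRHep-/- livers. Kupffer cell markers, whose sums are given above, were called higher for 3 of 8 in WT and 4 of 8 in HuRHep-/- livers. That list was mixed, since 2 of its 8 markers had lower estimates in each genotype, down to -0.96 in WT and -0.55 in HuRHep-/- livers. In HuRHep-/- livers, a rise was also called for 4 of 7 T, B and NK cell markers (3.39 to 4.55 CPM in chow, 5.66 to 7.23 in HFCF), 2 of 8 endothelial markers (127 to 161 and 163 to 169 CPM) and 1 of 3 neutrophil markers (2.09 to 3.25 and 4.33 to 5.61 CPM). Their part in the members' values was not tested.

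**Figure D5:**
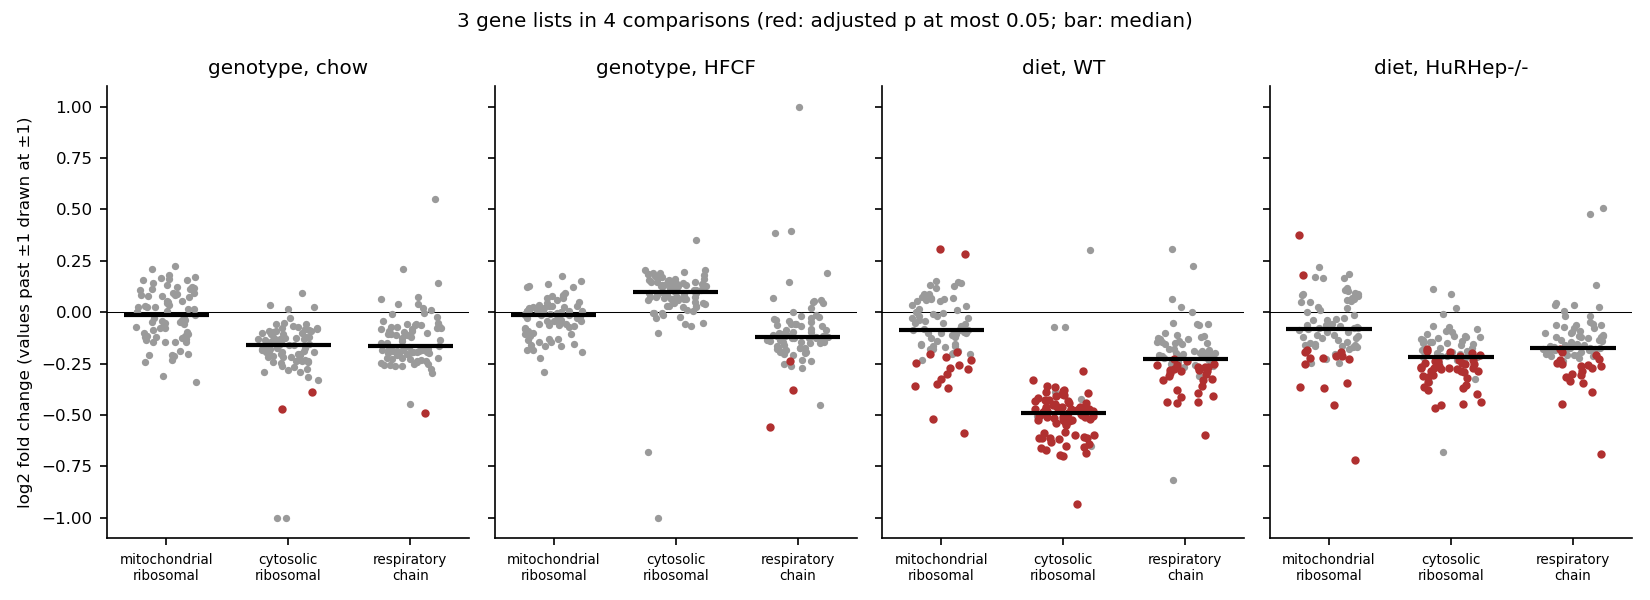
Log2 fold change of each mitochondrial ribosomal, cytosolic ribosomal and nuclear-encoded respiratory chain gene in 4 comparisons, with red points for an adjusted p of at most 0.05 and a bar at the median. With diet in WT livers the medians are -0.09 for the mitochondrial ribosome, -0.49 for the cytosolic ribosome and -0.23 for the respiratory chain under TMM scaling; with library totals they are 0.09, -0.31 and -0.05.

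The cytosolic ribosome and the respiratory chain are the nearest families by function, the first sharing the task. The second list holds nuclear-encoded subunits, those of ATP synthase among them, which join the products and are not made by this ribosome. With HFCF in WT livers, 77 of 84 cytosolic ribosomal proteins were called lower, with a median log2 fold change of -0.49, against 15 of 77 and -0.09 for mitochondrial ribosomal proteins. With library totals, 66 of 84 and 3 of 77 were called lower there. In HuRHep-/- livers 42 of 84 were called lower with a median of -0.22, against 14 of 77 and -0.08. With library totals, 2 of 84 and 2 of 77 were called lower in these livers. Of all genes, 12.8% were called lower in WT and 19.1% in HuRHep-/- livers. Of 81 respiratory chain subunits, 28 were called lower in WT (median -0.23) and 20 in HuRHep-/- livers (median -0.17), and 0 were called higher. With library totals 9 were called lower and 3 higher in WT livers, and 2 lower and 10 higher in HuRHep-/- livers, where the median was 0.06. With genotype in chow, 80 of 84 cytosolic ribosomal and 72 of 81 respiratory chain genes had lower estimates, with medians of -0.16 each, against 39 of 77 for the mitochondrial ribosome. With library totals these were 72 of 84, 57 of 81 and 24 of 77, with medians of -0.08, -0.08 and 0.07. In HFCF-fed livers, 12 of 84 cytosolic ribosomal genes had lower and 72 higher estimates (median 0.10), and 70 of 81 respiratory chain genes had lower ones (median -0.12). With library totals, 2 of 84 (median 0.25) and 24 of 81 (median 0.03) were lower there, so that the direction of the respiratory chain turned. These are counts, and no difference between the families was tested.

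Partners of the mitochondrial ribosome were followed with lists written from gene names. The 5 ribosomal proteins without an Mrp name had lower estimates with diet in both genotypes, at -0.21 to -0.18 in WT and -0.29 to -0.09 in HuRHep-/- livers, where the median was 0.12 with library totals. The 1 called was Ptcd3, an RNA-binding protein of the small subunit, which fell from 36.6 ± 2.42 to 29.9 ± 0.514 CPM (SD, n = 3) in HuRHep-/- livers (log2 fold change -0.29, limma adjusted p = 0.00638). That is 1 of 5 (20%), beside 19.1% of all genes called lower in these livers. With library totals 0 of the 5 were called and 1 had a lower estimate in these livers. With genotype, 0 of these 5 were called by limma in any comparison under TMM scaling, and 0 had an unadjusted p below 0.05, whereas 3 of 5 were called higher averaged over diets with library totals.

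Of 15 translation factors and helpers tested, 2 were called lower and 2 higher with diet in WT livers, and 3 lower and 1 higher in HuRHep-/- livers (with library totals 0 lower and 5 higher, and 3 lower and 4 higher). The shares called lower, 13.3% in WT and 20.0% in HuRHep-/- livers, were near the 12.8% and 19.1% of all genes. Called higher were 11.3% and 19.7% of all genes. Oxa1l, the insertase that takes up new chains in the inner membrane, fell from 49.0 ± 0.736 to 35.2 ± 0.898 CPM in HuRHep-/- livers (-0.48 ± 0.07, limma adjusted p = 0.000700), and by 0.27 on the log2 scale in WT livers (limma adjusted p = 0.0202). Lrpprc, which stabilises mitochondrial mRNAs, fell by 0.52 in HuRHep-/- and 0.33 in WT livers. The initiation factor gene Mtif2 fell by 0.48 in HuRHep-/- livers, where the elongation factor gene Tsfm rose by 0.32, and the elongation factor gene Gfm1 rose by 0.29 in WT livers. With genotype, Gfm2, a ribosome recycling factor, was lower in HFCF-fed livers labelled HuRHep-/-, at 34.9 ± 0.166 against 44.2 ± 1.16 CPM (-0.36 ± 0.06, limma adjusted p = 0.0235), a call that was lost with library totals.

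Of 25 genes for ribosome assembly and modification of its RNA, 6 were called lower and 2 higher with diet in WT livers, and 8 lower and 3 higher in HuRHep-/- livers (with library totals 0 lower and 5 higher, and 1 lower and 5 higher). Called lower were 24% in WT and 32% in HuRHep-/- livers, against 12.8% and 19.1% of all genes. Of all genes, 11.3% and 19.7% were called higher. Malsu1, which keeps the subunits apart during assembly, was called lower with diet in both genotypes (-0.32 and -0.44) and lower with genotype averaged over diets (-0.26 ± 0.05, limma adjusted p = 0.00709). Ybey, an endonuclease gene of low level, was higher with genotype, at 2.98 ± 0.373 and 4.33 ± 0.399 CPM in chow and 3.00 ± 0.471 and 4.58 ± 0.216 CPM in HFCF (0.58 ± 0.10 averaged, limma adjusted p = 0.00351). Averaged over diets, 3 of the 25 were called higher and 4 lower (28% called, against 19.2% of all genes). With library totals these were 6 higher and 1 lower. The calls of Malsu1 with diet in WT livers and with genotype were among those lost.

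Of 17 mitochondrial aminoacyl-tRNA synthetases, Nars2, which charges the tRNA for asparagine, had the smallest p with genotype averaged over diets. It was at 17.97 ± 0.866 CPM in chow WT, 13.4 ± 1.57 in chow HuRHep-/-, 14.2 ± 1.69 in HFCF WT and 8.80 ± 0.306 CPM in HFCF HuRHep-/- livers. It was called lower with genotype in HFCF-fed livers (-0.70 ± 0.10, limma adjusted p = 0.01995) and averaged over diets (-0.56 ± 0.07), and lower with diet in both genotypes (-0.34 and -0.60), the call in WT livers being lost with library totals. Over the list, 1 was called higher and 4 lower with genotype averaged over diets, 1 and 2 with diet in WT livers, and 2 and 3 with diet in HuRHep-/- livers. In this order, 29.4%, 17.6% and 29.4% of the list were called, against 19.2%, 24.2% and 38.9% of all genes. With library totals the counts were 5 and 2, 7 and 0, and 5 and 1.

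Of 16 genes for transcription of mitochondrial DNA and its regulators, 0 were called higher and 4 lower with diet in WT livers, and 0 and 8 in HuRHep-/- livers, against 0 and 0, and 0 and 2, with library totals. Under TMM scaling 25% were called lower in WT and 50% in HuRHep-/- livers, against 12.8% and 19.1% of all genes. Of all genes, 11.3% and 19.7% were called higher. Gabpa, which encodes the ETS subunit of GABP, fell by 0.60 ± 0.09 on the log2 scale in HuRHep-/- livers (limma adjusted p = 0.000581), from 31.4 ± 2.00 to 20.8 ± 0.869 CPM, and had an estimate of -0.21 in WT livers (limma adjusted p = 0.0965). Yy1 fell in both (-0.34 and -0.33), as did Nrf1 (-0.34 and -0.24) and Tfam (-0.21 and -0.26), which packs mitochondrial DNA and starts its transcription. The members with ETS letters in their promoters are given above, and no relation between these levels and those letters was tested. Of the 13 RNAs of mitochondrial DNA in both tables, all protein-coding, 13 had lower estimates with diet in each genotype (8 of 13 with library totals), and 3 were called lower in HuRHep-/- livers, mt-Nd5 (-0.38), mt-Nd4l (-0.39) and mt-Nd2 (-0.44), whereas 0 were called there with upper-quartile factors or library totals. No such RNA was called by limma with diet in WT livers, where 1 had an unadjusted p below 0.05, and mt-Atp8 was called lower with genotype in HFCF-fed livers (-0.49 ± 0.11, limma adjusted p = 0.0448), a call that was also absent with upper-quartile factors and with library totals.

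Some members share exon bases with a neighbour. On the same strand, over 10% of exon bases did so for Mrpl53, Mrps34, Mrps18c, Mrps6 and Mrps24, whose counts could be split with the other gene. Mrpl53 shared 88.0% with the predicted gene Gm42688, and its values are uncertain for that reason. Over 10% lay opposite another gene's exons for 13 members, among them Mrps25 with Nr2c2 (69.8%), Mrpl24 with Rrnad1 (26.3%) and Mrpl47 with Ndufb5 (13.9%). The libraries were made with a stranded kit, and the study's methods give reverse-strand alignment for the chow data.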

How the data were processed

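Members and gene lists were chosen with earlier results of these data known. The deposited tables, 1 per diet, hold raw counts per gene; the authors' methods name CLC Genomics Workbench and GRCm38.p6 for the chow data, the labels give that build for all samples, and those methods filter called genes on low RPKM, while what decided the genes listed in the tables is not given in the sources used here. Counts written with commas were read as whole numbers. Genes needed at least 10 counts (scaled to the median library) in 3 libraries and 15 in total. TMM factors, computed anew, gave log2 CPM with a pseudocount of 0.5, tested with limma-trend (R 4.3.3, limma 3.58.1) and Benjamini-Hochberg adjustment over all genes at 0.05. Genotype within a diet was fitted in its own table, and the other comparisons over 12 libraries; printed CPM come from the 12-library scaling. Summaries used Python 3.11.15, pandas 2.3.3 and numpy 2.4.6. The labels do not say more of the replicates than their numbers, so p-values measure the spread between these samples. Intervals are 95% limma intervals. Scripts were tested on simulated data. Named members are all those called, or the 8 smallest p-values of a comparison with fewer calls, the 5 highest and lowest levels, the 3 least correlated and the S18 copies, and for other lists up to 4 called genes per comparison. Other scaling factors, filters, weights, pseudocounts, a replicate block and leaving out each library were tried.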

Additional observations from a re-analysis of the deposited data

How the results depend on the processing

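Under the alternatives, 1014 of 1022 values of named members kept their direction, and of these 155 lost a call and 12 gained one. The other 8, given below, turned from a called fall to a higher estimate, so that those calls were lost too. Counts of members called moved in chow to 1 with upper-quartile factors, 1 with at least 10 counts in every library, 2 in a fit on all 12 libraries and 1 with library totals, a scaling chosen after seeing the data. With library totals, counts were 4 for genotype in HFCF, 26 for genotype averaged over diets and 28 for diet in HuRHep-/- livers. Requiring a 1.5-fold change left 0 members for genotype averaged over diets and 1 for diet in either genotype. Leaving out 1 library gave 0 to 1 in chow, 0 to 0 in HFCF, 2 to 10 averaged over diets, 5 to 22 for diet in WT, 7 to 14 for diet in HuRHep-/- livers and 0 to 0 for the difference between diets. With library totals, the diet estimate in HuRHep-/- livers turned to 0.0152 for Mrpl24, 0.0014 for Mrps35, 0.0059 for Mrps24, 0.0350 for Mrpl12, 0.0165 for Mrps27, 0.0059 for Mrpl13, 0.0451 for Mrpl28 and 0.0343 for Mrpl2, the median of all genes having moved up by 0.23. Replicate numbers did not pair the samples: of 18 same-number pairs, 4 had a correlation of deviations over 0.1 (range -0.14 to 0.19), and 1 of 12 libraries correlated best with its own number in every other group. The replicate block removed 3 calls and reversed none. With 3 livers per group, small differences may have gone uncalled, and the printed intervals give the precision of each estimate. Diet cannot be told apart from the deposited table.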
